A study of Mus musculus with 282 samples.

Results

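The 9 genes described here, Cx3cr1, Csf1r, C1qa, C1qb, C1qc, Tyrobp, Trem2, P2ry12 and Ctss, are genes by which microglia are commonly recognised. They were chosen by name in the transcript assembly. All 9 of 9 were found among the 14079 genes of the expression table, each as a locus that carried no other gene name, and they had 40 of the 51024 transcripts. None was lost to the filter of the table, which dropped any feature detected in under 100 mice or exceeding 1 in fewer than 50.

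The tissue was the whole hypothalamus of male mice of the Hybrid Mouse Diversity Panel, a collection of inbred strains, and 282 mRNA libraries were deposited, 1 per mouse. Per the study all mice were on a high fat, high sugar diet, and no group was left untreated. Every comparison is therefore between strains or between mice of 1 strain, and the labels give no age. The 99 strains comprised 25 classical inbred strains, 43 BXD strains (bred from C57BL/6J and DBA/2J), 18 AXB or BXA strains (C57BL/6J and A/J), 7 CXB strains and 6 BXH strains (whose other founders were of the BALB/c and C3H backgrounds). Libraries OB-273 and OB-274 of CXB-6/ByJ held the same profile: their ratio stayed within 0.1% of its median of 0.995 in 100% of the 13991 genes above 0 in both, against at most 0.930% of genes in any other pair of mice of 1 strain. They differed by less than the sampling noise and were counted as 1 sample, their mean, which left 281 mice. Most strains, 84 of 99, then had 3 mice, 13 had 2 and 2 had 1. Mouse OB-627, for which the labels named 2 strains, was left out of comparisons and kept in values over all mice.

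Microglia are the resident macrophages of the brain. Signals through the receptor Csf1r, bound by Csf1 and Il34, keep them alive, while Cx3cr1 receives the chemokine Cx3cl1, which neurons display. Their surface receptor Trem2 signals through the adaptor Tyrobp, P2ry12 senses nucleotides released from other cells, and Ctss is a protease of their lysosomes. C1qa, C1qb and C1qc encode the chains of C1q, which starts the classical complement pathway and for which microglia are a major source in the brain. In a whole tissue, fewer microglia and less RNA per microglial cell cannot be told apart.

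Levels are given as FPKM, the number of sequenced fragments of a gene relative to its length and to the size of the library, which the authors also normalized between mice. 2 libraries stood apart in the sum of FPKM over genes: mouse OB-547 of BXD-12/TyJ had 792801 and mouse OB-422 of CXB-3/ByJ had 463433, against a median of 337533 and no more than 359916 in the other mice. In OB-547 C1qc was 45.8 FPKM, Tyrobp 34.9 FPKM and Trem2 14.5 FPKM. In the other mice of BXD-12/TyJ C1qc was 15.1 and 16.8 FPKM, Tyrobp 6.64 and 7.81 FPKM, and Trem2 3.12 and 3.15 FPKM. Cx3cr1 did not stand above the other mice of the strain in OB-547, at 8.79 FPKM against 10.1 and 10.7 FPKM. Main results that depend on these 2 mice are given with and without them, but r of pairs that do not include Cx3cr1 only with them.

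All of the genes but P2ry12 were detected in every mouse. Ctss was the most abundant, at 40.1 ± 11.6 FPKM (SD, n = 281 mice), followed by C1qa at 22.6 ± 7.20 FPKM, C1qc at 19.0 ± 6.49 FPKM, C1qb at 16.3 ± 5.62 FPKM and Csf1r at 14.9 ± 2.56 FPKM. Tyrobp reached 11.5 ± 3.88 FPKM, Cx3cr1 9.78 ± 1.62 FPKM, Trem2 4.77 ± 1.53 FPKM and P2ry12 3.80 ± 1.91 FPKM. Since FPKM are per length, these levels can be set against each other. Ctss was above C1qa in 281 of 281 mice and Cx3cr1 was above Trem2 in 279 of 281, whereas the mean of C1qb was above that of Csf1r in 61 of 99 strains and that of Tyrobp above that of Cx3cr1 in 70 of 99, so that these neighbours in the order did not separate. Among the C1q chains C1qa was above C1qb in 258 of 281 mice. Cx3cr1 and Csf1r were the steadiest, with coefficients of variation of 16.5% and 17.2%. The coefficient was 29.0% to 34.4% for Ctss, Tyrobp, Trem2 and the C1q genes, and 50.3% for P2ry12.

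P2ry12 was listed at 0 in 1 mouse and at or below 1 FPKM in 20 mice. Its only deposited transcript, on the minus strand, spans chr3:59216360-59220259 (mm10), whereas the gene of GENCODE M21 spans chr3:59216272-59262871. That transcript covers 82.5% of the exon bases of the M21 gene. All of its 2101 exon bases lie within the span, but outside the exons, of Med12l, a gene on the opposite strand with a mean of 7.94 FPKM. The libraries were unstranded, so reads from the introns of Med12l and from P2ry12 cannot be told apart. Exons of Hmgxb3 overlap 22.8% of the exon bases of Csf1r and exons of Hcst 12.2% of those of Tyrobp, in both cases from the opposite strand, and none of the other 6 genes shared exon bases with an M21 gene of another name.

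**Figure D1:**
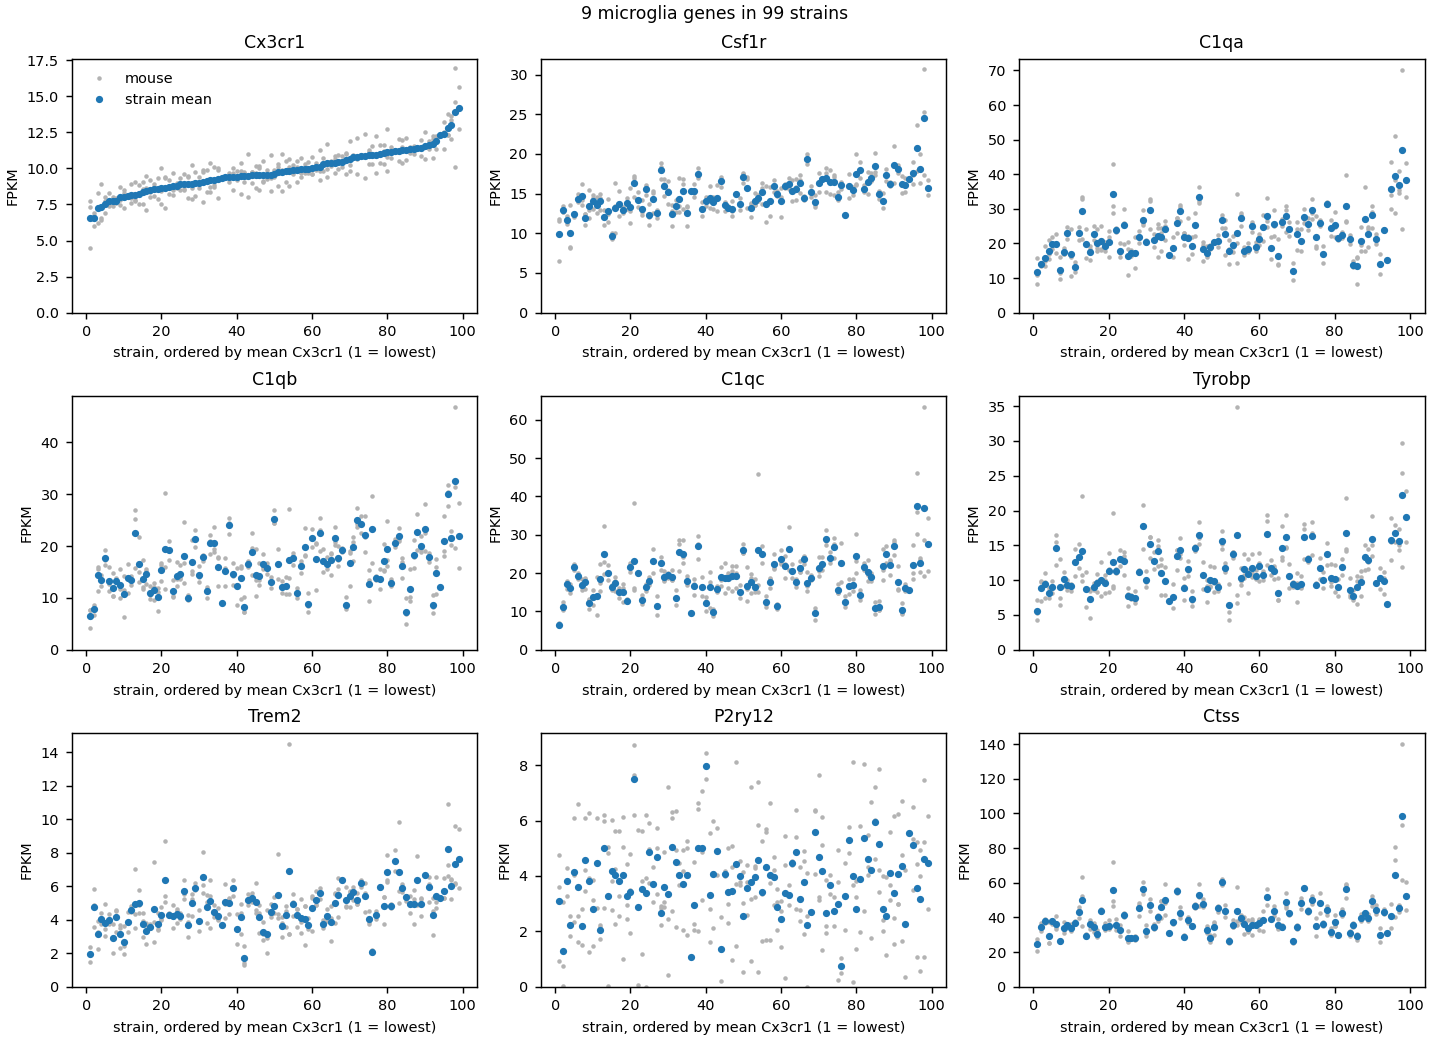
Level of each of the 9 genes (vertical axis, FPKM, from 0) in 99 strains, which are ordered in every panel by their mean Cx3cr1 (horizontal axis, rank, 1 is lowest). Grey points are mice and blue points strain means; Csf1r climbs with the order, P2ry12 scatters without one, and the highest Ctss point is strain BXD74 at 98.4 FPKM.

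The first question was how far the strain of a mouse set the level of these genes. Strain differences passed the limma F test on log2(FPKM + 1), at a Benjamini-Hochberg adjusted p under 0.05, for 8 of the 9 genes, where 74.9% of all genes tested did so. The count is therefore close to what the whole transcriptome shows. The share of variance that lay between strains (the intraclass correlation of log2(FPKM + 1)) was larger than over all genes, however. Its median was 0.64 over the 8 genes other than Cx3cr1 against 0.22 over all genes. Marker lists of other cell types had medians from 0.20 (6 anterior pituitary genes) to 0.63 (5 red blood cell genes). Among them were 0.23 for neuron, 0.45 for astrocyte and 0.49 for oligodendrocyte genes. A list of 24 other microglia genes had 0.39. The share was 0.79 for Ctss, 0.71 for C1qc, 0.68 for C1qb and Cx3cr1, 0.65 for Csf1r, 0.64 for C1qa, 0.55 for Tyrobp and 0.52 for Trem2. For P2ry12 it was -0.05, with an adjusted p of 0.78 in the limma test, so no strain difference was detectable. Without mice OB-547 and OB-422 the shares of Tyrobp and Trem2 were 0.64 and 0.59.

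Cx3cr1 ranged over strain means from 6.53 FPKM in CBA/J and 6.55 FPKM in LG/J to 13.9 FPKM in BXD74 and 14.2 FPKM in BXH-19/TyJ, a 2.17-fold range around a median strain of 9.59 FPKM. Csf1r ranged 2.55-fold, from 9.59 FPKM in CXBH to 24.5 FPKM in BXD74. The other genes spread further. C1qa ranged 4.05-fold, C1qb 5.02-fold, C1qc 5.73-fold, Tyrobp 4.02-fold, Trem2 4.82-fold and Ctss 4.01-fold. P2ry12 ranged 10.5-fold, from 0.761 FPKM in SJL/J to 7.97 FPKM in KK/HlJ, although its strain differences did not pass the test. Neighbouring strains lay close together in each gene's order. Of the 98 steps between them, none exceeded the SD of mice within strains for C1qa, C1qb, Tyrobp, Trem2 and P2ry12. For Cx3cr1, C1qc and Ctss 1 step did, and for Csf1r 2 did. Steps among 99 ordered means are small whether or not strains differ, as the count for P2ry12 shows. The count therefore cannot tell how strain levels are graded.

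BXD74, an advanced BXD strain, had the highest mean of Csf1r, C1qa, C1qb, Tyrobp and Ctss. Its 3 mice were not alike. Ctss was 61.4 FPKM in mouse OB-1071, 93.5 FPKM in OB-1120 and 140 FPKM in OB-1121, against a median strain of 37.2 FPKM. C1qa was 24.1, 46.8 and 70.2 FPKM in the same mice, and Csf1r 17.4, 25.3 and 30.7 FPKM. Cx3cr1 was 10.1, 14.6 and 17.0 FPKM, so that OB-1071 was near the median strain for Cx3cr1 while its Ctss was far above. The sum of 24 other microglia genes with a locus of their own was 203 to 331 FPKM in these mice, against a median of 190 FPKM in the other mice, and BXD74 ranked 2 of 99 strains for it. The sums of the astrocyte and neuron lists ranked 60 and 57 of 99. Lyz2, a lysozyme of blood and tissue macrophages, was highest of 99 strains in BXD74, at 9.43 ± 6.17 FPKM (SD, n = 3) and up to 16.0 FPKM in 1 mouse, against a median of 4.05 FPKM in the other mice. The lysosome sum ranked 13 of 99 and the oligodendrocyte and ependymal sums 87 each. The part of these genes in the values of BXD74 was not tested.

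CBA/J lay at the other end, lowest of 99 strains for Cx3cr1, C1qa, C1qb, C1qc, Tyrobp and Ctss and rank 98 for Csf1r and Trem2. Its mice had 4.52, 7.34 and 7.74 FPKM of Cx3cr1, 4.15, 7.62 and 7.75 FPKM of C1qb and 20.6, 25.2 and 27.8 FPKM of Ctss. Mouse OB-691 gave the lowest value each time. The sum of the other microglia genes was lowest of all strains here too, at 125 to 146 FPKM, while the astrocyte and neuron sums ranked 37 and 28 of 99. Several other sums were low in CBA/J as well, with rank 98 of 99 for the lysosome sum and for Lyz2, 96 for the activation list, 92 for oligodendrocyte, 85 for endothelial and 84 for ependymal genes. Their part in the low values of CBA/J was not tested. CXB-7/ByJ was high in most of the genes, with C1qc at 30.3, 36.1 and 46.0 FPKM and Ctss at 40.0, 72.9 and 80.6 FPKM in its 3 mice. These strains were picked for their values and their differences were not tested.

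Among the 9 genes, C1qb and C1qc carried the clearest differences between parental strains. C1qb was 19.8, 21.6 and 23.4 FPKM in the 3 C57BL/6J mice. It was 9.57, 12.1 and 12.8 FPKM in DBA/2J, 4.88, 6.93 and 9.95 FPKM in A/J, 9.87, 10.5 and 12.3 FPKM in BALB/cJ and 9.37, 13.5 and 15.4 FPKM in C3H/HeJ. No mouse of the other strains reached the lowest C57BL/6J mouse. The log2 difference from C57BL/6J in the limma fit of all strains was -0.86 ± 0.22 (SE; adjusted p = 0.00311) in DBA/2J, -1.49 ± 0.22 (adjusted p = 9.81e-09) in A/J, -0.93 ± 0.22 (adjusted p = 0.00122) in BALB/cJ and -0.74 ± 0.22 (adjusted p = 0.0160) in C3H/HeJ. All 4 differences share the same 3 control mice.

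C1qc followed the same order. It was 22.4, 22.7 and 25.9 FPKM in C57BL/6J, 12.4, 16.0 and 17.2 FPKM in DBA/2J, 9.39, 10.9 and 12.3 FPKM in A/J, 13.5, 15.5 and 16.2 FPKM in BALB/cJ and 14.8, 14.8 and 17.0 FPKM in C3H/HeJ. Again the groups did not overlap with C57BL/6J. The log2 differences were -0.62, -1.06, -0.62 and -0.58, each ± 0.19 (SE), with limma adjusted p of 0.0290, 9.78e-06, 0.0297 and 0.0457. C1qa, the first chain, did not separate in this way. It was 19.5, 21.8 and 22.6 FPKM in C57BL/6J and spread over 18.0 to 27.8 FPKM in DBA/2J, BALB/cJ and C3H/HeJ. A/J had 13.1, 13.4 and 15.04 FPKM of C1qa, below every C57BL/6J mouse, and the difference of -0.59 ± 0.20 (SE) missed the threshold (limma adjusted p = 0.0526), although it passed with quantile normalization (adjusted p = 0.0415), without mouse OB-547 (adjusted p = 0.0389) and with the mapped reads and their unique share as covariates (adjusted p = 0.0499), and ran from 0.0389 to 0.264 over all alternatives.

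In A/J Csf1r stood on the other side. Csf1r was 17.4, 17.8 and 20.1 FPKM in A/J against 12.01, 14.6 and 15.6 FPKM in C57BL/6J, a log2 difference of 0.37 ± 0.11 (SE; limma adjusted p = 0.0192) with no overlap. Cx3cr1 was 10.6, 11.2 and 12.1 FPKM in A/J against 9.61, 9.64 and 10.8 FPKM in C57BL/6J, which overlapped (log2 difference of 0.16 ± 0.10, adjusted p = 0.406). Counted over the 9 genes, 2 differed from C57BL/6J in DBA/2J (6.85% of all genes did), 3 in A/J (7.98%), 2 in BALB/cJ (6.75%) and 2 in C3H/HeJ (7.56%). With 1 mouse per strain left out, the counts fell to as low as 0 in DBA/2J, BALB/cJ and C3H/HeJ, and the C1qb and C1qc values kept their sign in every such fit. Csf1r in A/J did not pass without replicate 1 of each strain (log2 difference 0.21, adjusted p = 0.501). Tyrobp, Trem2, P2ry12 and Ctss did not pass in any of the 4 strains.

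**Figure D2:**
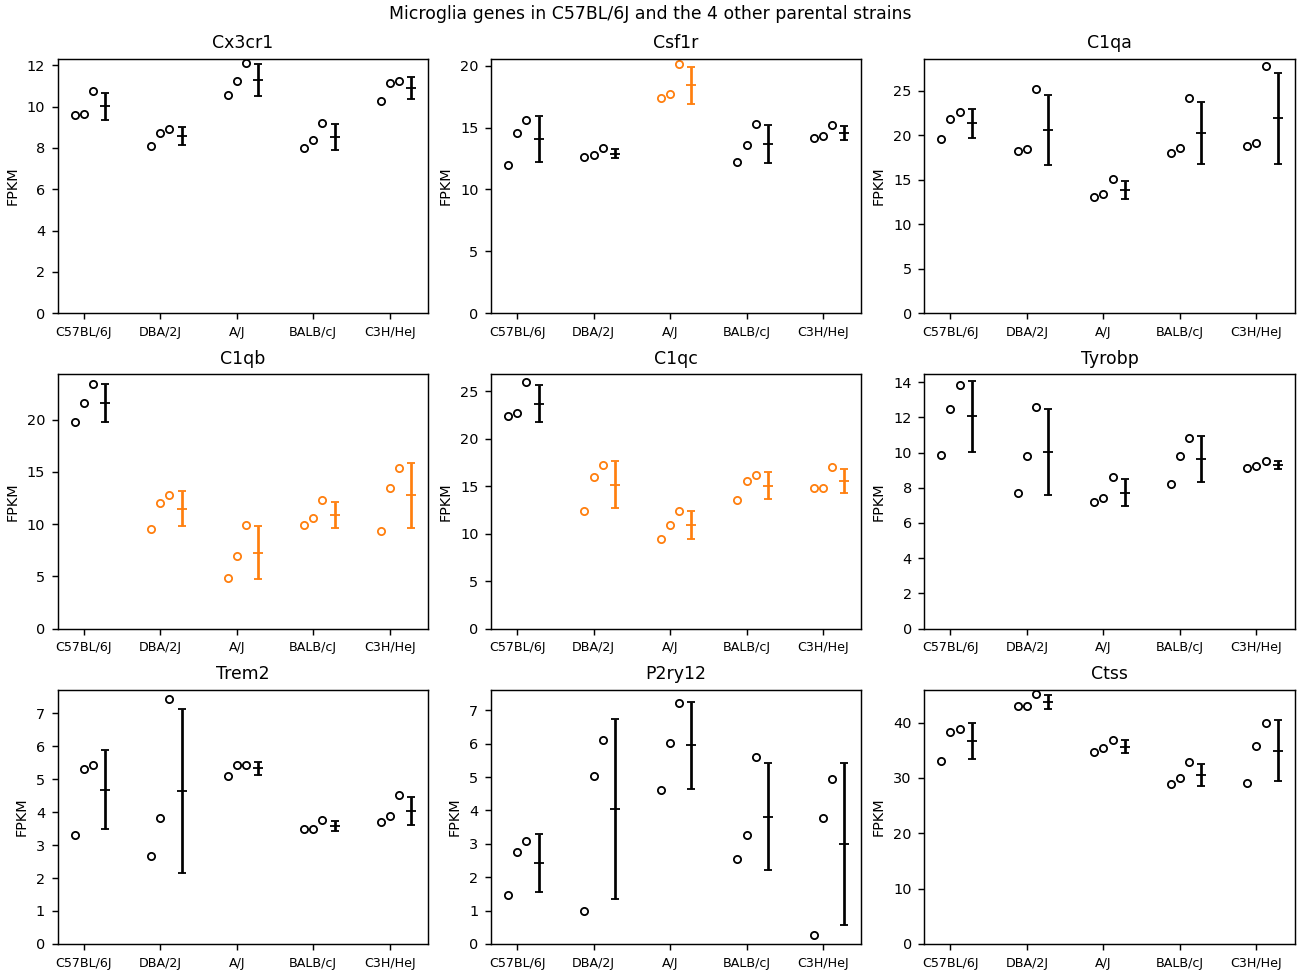
Level of each gene (vertical axis, FPKM, from 0) in the 3 mice of C57BL/6J and of the 4 other parental strains (horizontal axis). Circles are mice, the dash with bars is the mean ± SD, and orange marks a limma adjusted p under 0.05 against C57BL/6J, as for C1qb and C1qc in all 4 strains and Csf1r in A/J.

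The recombinant strains bred from these parents lay between or beyond them. C1qb had a median of 16.6 FPKM over 43 BXD strains, between the parental means of 11.5 ± 1.68 FPKM (SD, n = 3) in DBA/2J and 21.6 ± 1.81 FPKM in C57BL/6J, and ran from 10.02 to 32.6 FPKM. Over the 18 AXB and BXA strains its median was 16.6 FPKM, with the lowest strain at 12.1 FPKM, above the A/J mean of 7.25 ± 2.55 FPKM. The classical inbred strains had the lowest median, 11.7 FPKM, and the widest range downwards, to 6.51 FPKM in CBA/J.

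C1qb and C1qc lie side by side on chromosome 4 with C1qa, all on the minus strand, at chr4:136880129-136886187 for C1qb, chr4:136889792-136893065 for C1qc and chr4:136895917-136898819 for C1qa (mm10). Bases upstream of the start are shown for C1qb, C1qc, Trem2 and Ctss, which are the searched genes that held the letters marked here. They were taken from RefSeq (GRCm38.p6, 5′ to 3′ on the strand of the gene) and leave out bases that any annotated or deposited exon covers. Capitals mark GAGGAA or, on the other strand, TTCCTC, letters found in the core of sequences bound by the myeloid transcription factor PU.1.
C1qb, chr4:136886201-136886450, minus strand: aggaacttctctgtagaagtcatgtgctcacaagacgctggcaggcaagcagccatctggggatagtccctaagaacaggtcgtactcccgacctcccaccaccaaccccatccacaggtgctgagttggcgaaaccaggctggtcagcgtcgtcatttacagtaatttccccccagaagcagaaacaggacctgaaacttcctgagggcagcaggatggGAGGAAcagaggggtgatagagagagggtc
C1qc, chr4:136893066-136893164, minus strand: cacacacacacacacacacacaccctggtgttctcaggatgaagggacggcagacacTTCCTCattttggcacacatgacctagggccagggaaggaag
Trem2, chr17:48346151-48346400, plus strand: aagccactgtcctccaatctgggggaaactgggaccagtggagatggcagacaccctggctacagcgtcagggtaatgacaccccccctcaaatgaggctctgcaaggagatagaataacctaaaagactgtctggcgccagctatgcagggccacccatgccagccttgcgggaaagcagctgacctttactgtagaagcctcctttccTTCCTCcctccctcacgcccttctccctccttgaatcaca
Ctss, chr3:95526536-95526785, plus strand: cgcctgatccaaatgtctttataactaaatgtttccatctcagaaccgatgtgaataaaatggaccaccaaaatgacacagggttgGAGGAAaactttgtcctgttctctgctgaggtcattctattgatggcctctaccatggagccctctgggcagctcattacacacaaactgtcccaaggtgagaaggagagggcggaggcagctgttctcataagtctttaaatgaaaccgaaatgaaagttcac

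Of the 9 genes 6 had an entry among the RefSeq promoters. The 250 bases before the start held GAGGAA on either strand in 4 of the 6, these being the genes shown, and did not in Cx3cr1 and P2ry12. Of all 32851 promoters 23.3% held it in the same window. For P2ry12 the bases after the RefSeq start were found in 0 M21 transcripts of the gene, against 1 to 3 for the other genes. Its window also overlapped 8 entries of annotated or deposited exons, against at most 2, so its window is less comparable. A match of 6 letters describes the sequence and is not a measured binding site.

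Transcripts of the genes told less about strains than the genes did. Of the 40 transcripts 20 passed the limma F test of strain differences over all transcripts, against 45.9% of all transcripts. All 22 deposited transcripts of Ctss are isoforms that are not in GENCODE M2, most of 1358 bases, and each held at most 6.98% of the gene's FPKM. Of the 22, 5 passed, with strain shares of 0.13 to 0.21, and the shares of all 22 ran from -0.12 to 0.21, although Ctss as a gene had the largest share of the 9. Together they made up 76.4% of the gene's level. Cx3cr1 was divided between an annotated transcript with an exon far downstream (5.87 ± 1.96 FPKM, SD, n = 281) and the annotated 2-exon transcript (3.91 ± 1.35 FPKM), and both passed, with shares of 0.38 and 0.56. All 5 transcripts of Csf1r passed, as did both of Trem2, while 1 of 3 passed for Tyrobp. The 1 transcript of P2ry12 did not (limma adjusted p = 0.871).

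C1qa was unlike the others in that 1 of its 2 transcripts had a larger strain share, 0.72, than the gene. The annotated transcript and this other form both have 3 exons and an intron of 901 bases between the first and the second. In the other form that intron sits 10 bases upstream at both of its ends, and the transcript starts 16 bases further upstream. The 15 bases on each side of the annotated junction, in the 5′ untranslated region and the start of the coding sequence, are shown from GENCODE M21 because the forms part there, with the 10 exon bases that the other form leaves out in capitals.
C1qa, chr4:136898746-136898760 joined to chr4:136897830-136897844, minus strand: ggaccACGGAGGCAGggacaccatggagac

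The form with the shifted junction was near 0 in some strains and abundant in others. Its strain mean was under 2 FPKM in 46 of 99 strains and at 4 FPKM or more in 51, with 2 strains between. In C57BL/6J it was at or near 0 in 2 mice and 1.39 FPKM in the third, while the annotated form was 18.1, 18.5 and 21.8 FPKM. In BALB/cJ it was 12.9, 15.9 and 18.0 FPKM, in C3H/HeJ 11.7, 12.3 and 14.6 FPKM, in A/J 4.87, 5.59 and 8.55 FPKM and in DBA/2J 2.39, 7.88 and 15.8 FPKM, so that every mouse of these strains was above every C57BL/6J mouse. Of the BXD strains 23 of 43 had a mean under 2 FPKM and 20 of 43 a mean of 4 FPKM or more. These limits were set after seeing the values. In BXD74 the shifted form was 16.2, 30.5 and 52.4 FPKM, most of its C1qa. In CBA/J it was at or near 0 in every mouse, yet the annotated form was only 0.012, 5.55 and 9.71 FPKM, against a gene mean of 11.6 FPKM. The lowest mouse of BALB/cJ, C3H/HeJ and BXD74 had 1.94e-05, 0.0315 and 0.00157 FPKM of the annotated form. Over all mice the 2 forms together held 89.9% of the gene's FPKM. The split between the forms is an estimate from short reads that were aligned to mm10, the sequence of C57BL/6J, with up to 3 mismatches allowed, and the part of the alignment in this difference was not tested.

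**Figure D3:**
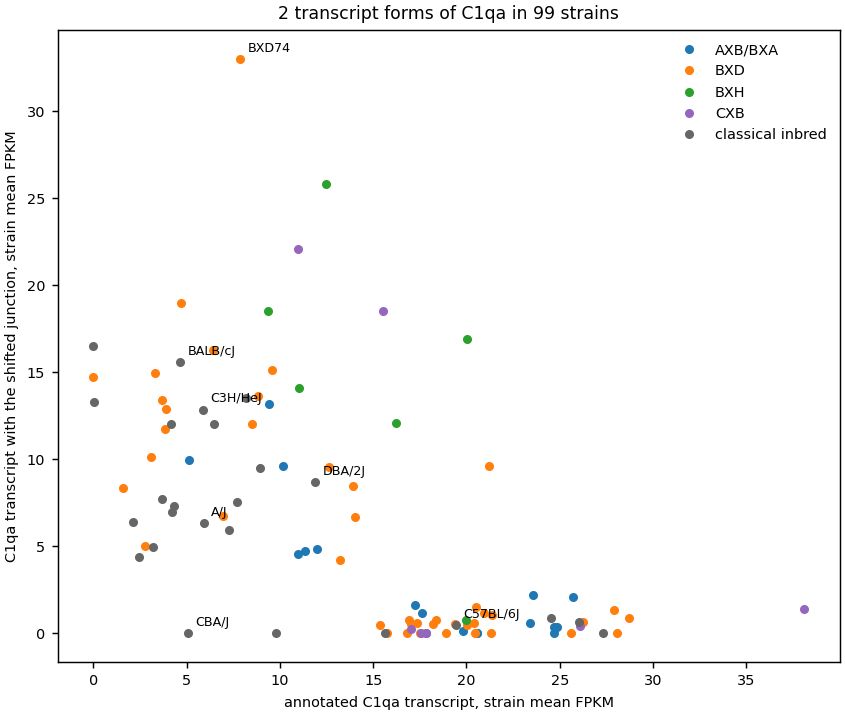
Strain means of the 2 deposited C1qa transcripts, the annotated one (horizontal axis, FPKM) and the one with the shifted junction (vertical axis, FPKM), 1 point per strain and coloured by strain set. C57BL/6J lies with the 46 strains whose shifted form is under 2 FPKM, and BXD74 is the highest point at 33.0 FPKM.

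Which genes follow Cx3cr1 was asked first between strains, with the slope of each gene's strain mean on the strain mean of Cx3cr1. The tests took the 99 strain means as independent, although many of the strains share parents, so their p-values may be too small. Very few genes followed. In the limma test 29 of 14078 genes (0.206%) had a positive slope at an adjusted p under 0.05 and 4 (0.0284%) a negative one, and 4 of the 8 other microglia genes of the set were among the 29. Csf1r was closest to Cx3cr1 of all genes, with a slope of 0.74 ± 0.07 (SE; adjusted p = 1.74e-13). Pearson's r over the 99 strain means was 0.73 and Spearman's rho 0.70, each with a permutation p of 1e-05, the smallest that 100000 resamples can give. Trem2 was rank 4, with r = 0.56 and rho = 0.55 (slope 0.90 ± 0.13, adjusted p = 3.26e-06, permutation p = 1e-05 for both). C1qa had r = 0.45 and rho = 0.36 (slope 0.85 ± 0.17, adjusted p = 0.00158, permutation p = 1e-05 and 0.00024) and C1qb r = 0.43 and rho = 0.40 (slope 0.93 ± 0.20, adjusted p = 0.00561, permutation p = 2e-05 and 4e-05).

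The other 4 genes had positive correlations that did not pass over all genes. Ctss had r = 0.36 and rho = 0.27 (limma adjusted p = 0.0858), Tyrobp r = 0.35 and rho = 0.27 (adjusted p = 0.0888), C1qc r = 0.35 and rho = 0.28 (adjusted p = 0.0967) and P2ry12 r = 0.14 and rho = 0.09 (adjusted p = 0.806). Adjusted over all 14078 genes, the permutation p of Pearson's r was under 0.05 for the same 4 genes as the limma test, and that of Spearman's rho for Csf1r, Trem2 and C1qb, with 0.0913 for C1qa. Without CBA/J and BXH-19/TyJ, the 2 strains farthest from the median of Cx3cr1, r was 0.72 for Csf1r, 0.49 for Trem2, 0.38 for C1qa, 0.37 for C1qb, and 0.26 to 0.30 for Ctss, C1qc and Tyrobp. Leaving out CBA/J alone raised the adjusted p of C1qb to 0.0503.

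Within the strain sets Csf1r was the steadiest companion. Its r with Cx3cr1 was 0.74 over 43 BXD strains, 0.73 over 25 classical inbred strains, 0.67 over 18 AXB and BXA strains, 0.86 over 7 CXB strains and 0.83 over 6 BXH strains. Trem2 was positive in each set, from 0.29 in BXH to 0.75 in CXB. C1qb was not, with r = 0.90 in CXB, 0.66 in BXH, 0.58 in BXD, 0.28 in classical inbred and -0.066 in AXB and BXA strains. C1qc likewise had r = 0.79 in CXB, 0.81 in BXH, 0.40 in BXD, 0.24 in classical inbred and -0.14 in AXB and BXA strains. In the BXD set alone Csf1r and Trem2 passed over all genes. In the other 4 sets none of the 8 passed in limma, and 1 to 6 did so at an unadjusted p under 0.05.

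Of the 29 genes that followed Cx3cr1 between strains, 4 were members and 12 were on a list of 34 further microglia genes. Another 8 had no name in the assembly and 5 were on none of the lists. Among the 10 highest r were those of Csf1r, Trem2, P2ry13 (a nucleotide receptor related to P2ry12, r = 0.54), Laptm5 (a lysosomal membrane protein of blood-derived cells, r = 0.54), Tmem119 (a microglial surface protein, r = 0.52) and 4 unnamed loci. Among the named genes outside the lists, picked out after their values were seen, were AF251705, 4632428N05Rik, Lag3 and Fcgr1. The genes that ran against Cx3cr1 were Fam120aos and Surf2, with r = -0.45 and -0.39, and 2 unnamed loci. Both lists of microglia genes were drawn up with earlier results of these data known, so their overlap with the 29 genes is not a test.

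Of 24 other microglia genes with a locus of their own 12 followed Cx3cr1 between strains and 0 ran against it in limma (at an unadjusted p under 0.05, 18 and 0), with a median r of 0.36 against -0.0084 over all genes. Other high values were those of Il10ra (r = 0.49), Cd53 (0.47), Gpr34 (0.43) and Sall1 (0.42), while Myd88, Rgs10, Mertk and Fcrls had r from -0.0017 to 0.10. Fcrls and Olfml3 differed strongly between strains nevertheless, with strain shares of 0.91 and 0.86. The other 9 symbols of that list, among them Spi1, Irf8 and Ptprc, were not analysed here, and Aif1 shares its locus with Lst1 and Prrc2a.

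The ligands and partners of these receptors did not follow Cx3cr1. Of 11 measured 0 passed in limma in either direction, and 2 did at an unadjusted p under 0.05, Tgfb1 (r = 0.29) and Csf1 (r = 0.27). Cx3cl1, the ligand of Cx3cr1, had r = 0.16 at a mean of 99.4 FPKM, and Il34, the other ligand of Csf1r, had r = -0.09. The complement genes C3 and C4b, which act after C1q, had r of 0.11 and 0.05. Of 13 lysosomal genes with their own locus 0 passed (2 at an unadjusted p under 0.05, Ctsc, r = 0.26, and Grn, r = 0.20), and the median r was 0.14. Of 4 measured genes of the activation list, Axl, Spp1, Cd9 and Cd63, 0 passed, also before adjustment, and r lay between -0.06 and 0.10. Spp1 still had a strain share of 0.69.

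Markers of other cell types gave no such relation between strains. None of the astrocyte, oligodendrocyte, neuron, endothelial, ependymal, choroid plexus, anterior pituitary, thalamus and red blood cell genes passed in limma. At an unadjusted p under 0.05 the only ones were 1 of 5 red blood cell genes, upwards, and 2 of 6 pituitary genes, downwards. The medians of r were 0.06 for 6 astrocyte genes, 0.12 for 6 oligodendrocyte genes, 0.09 for 6 neuron genes and -0.15 for 6 pituitary genes. With scores of the choroid plexus, pituitary and thalamus lists as covariates 6 of the 8 microglia genes followed Cx3cr1, since Tyrobp and C1qc then passed (adjusted p = 0.0461 and 0.0476). Of 8 blood leukocyte genes only Lyz2 was analysed here (r = 0.24), and none of 7 perivascular macrophage genes was, so macrophages other than microglia were not followed.

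The genes next to Cx3cr1 on chromosome 9 did not share its pattern. Among 22 named genes within 1000000 bases, 21 differed between strains in the limma F test, yet 0 followed Cx3cr1 and 0 ran against it (0 and 1 at an unadjusted p under 0.05). Their r ran from -0.30 (Myrip) to 0.19 (Rpl14), with a median of 0.03. Myd88, a microglial adaptor of Toll-like receptors 708652 bases away, had r = -0.0017, and Mobp, a myelin gene 81410 bases away, r = 0.17.

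The same question was then asked within strains. With strain in the model, 1457 of 14078 genes (10.3%) followed Cx3cr1 over all mice of known strain and 8.03% ran against it, and again 4 of the 8 genes followed. They were Csf1r (r = 0.66, slope 0.73 ± 0.06 (SE), limma adjusted p = 3.68e-20), Ctss (r = 0.35, slope 0.45 ± 0.09, adjusted p = 0.000376), C1qa (r = 0.28, slope 0.57 ± 0.14, adjusted p = 0.00363) and C1qb (r = 0.23, slope 0.50 ± 0.16, adjusted p = 0.0169). By permutation of mice within strains the adjusted p of C1qb was 0.0616. C1qc (r = 0.16), Tyrobp (r = 0.06), Trem2 (r = 0.04) and P2ry12 (r = -0.07) did not pass, with adjusted p of 0.118, 0.624, 0.702 and 0.526. Trem2 thus had r of 0.56 between strains and 0.04 within them, and the difference between these was not tested.

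These values moved with the 2 libraries that stood apart. Without mice OB-547 and OB-422, 440 genes in place of 1457 followed Cx3cr1 within strains, and r of C1qc rose to 0.29 (adjusted p = 0.00880), that of Ctss to 0.44 and that of Csf1r to 0.69. Tyrobp and Trem2 then had r of 0.17 and 0.13 and still did not pass. Without BXD74 r of C1qb fell to 0.17 (adjusted p = 0.0738), and without CBA/J to 0.19 (adjusted p = 0.0609). With the levels of C1qa and Ctss taken as the sums of their deposited transcripts, their within-strain r were 0.07 and 0.13 and neither passed. With replicate 1 of each strain left out, neither C1qa (r = 0.14, adjusted p = 0.454) nor Ctss (r = 0.22, adjusted p = 0.221) passed, and C1qa did not without replicate 3 (r = 0.26, adjusted p = 0.148). C1qb did not pass whichever replicate was left out, at an adjusted p of 0.285, 0.142 and 0.175. Of the 4 genes, Csf1r alone passed in all 3 of these fits.

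Transcript length moved with the within-strain relation. Across 12523 genes, which are not independent replicates, the within-strain r with Cx3cr1 had a Spearman correlation of 0.59 with mean transcript length (0.43 without the 2 mice), against 0.11 for the between-strain r. Genes that followed Cx3cr1 within strains had a median length of 5673 bases, those that ran against it 1527 bases, and all genes 2749 bases. Cx3cr1 and Csf1r were the longest of the 9, at 3385 and 4384 bases, whereas Tyrobp, at 623 bases, was the shortest. The lengths of the other genes overlapped. C1qa, C1qb and Ctss, which followed Cx3cr1 within strains, had 1045, 1088 and 1358 bases. Trem2, C1qc and P2ry12, which did not, had 1082, 1115 and 2101 bases. The part of length in which members followed Cx3cr1 was not tested. The 10 highest within-strain r were those of Csf1r, Itgam (an integrin of myeloid cells, r = 0.53), Mpeg1 (a pore-forming protein of macrophages, r = 0.43), Micall1, Adcy5, Srcin1, Peli2, an unnamed locus, Hipk2 and Ttbk1.

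Of the 29 genes that followed between strains 14, or 48.3%, also followed within strains, which is 0.961% of the 1457. Of the 24 other microglia genes 11 followed within strains and 0 ran against Cx3cr1 in limma (13 and 0 at an unadjusted p under 0.05), with a median r of 0.17. The astrocyte list had 3 of 6 and the neuron list 2 of 6, and 3 of 4 ependymal genes ran against Cx3cr1, so within strains genes of other cell types moved with Cx3cr1 as well. The lysosome and activation lists each had 1 gene that followed and 1 that ran against it, the endothelial list had 1 of 4 that followed, and Lyz2 followed too. None of the ligand and partner, red blood cell, oligodendrocyte, choroid plexus, pituitary and thalamus genes passed within strains in limma, of which 2 rose and 6 fell with Cx3cr1 at an unadjusted p under 0.05.

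**Figure D4:**
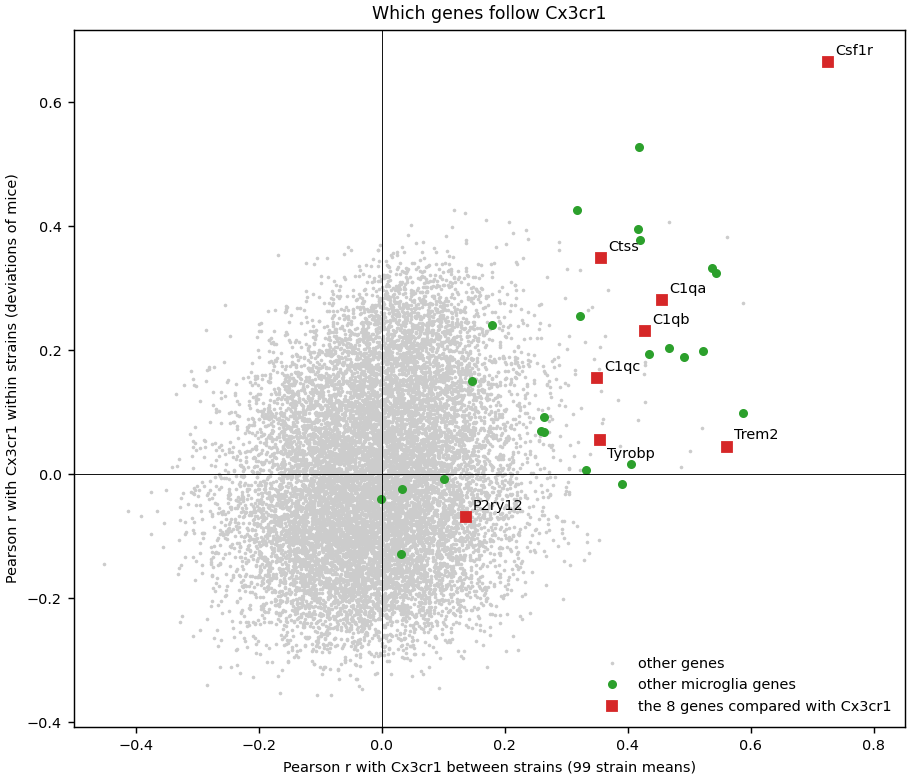
Pearson r of every gene with Cx3cr1 between strains (horizontal axis, 99 strain means) and within strains (vertical axis, deviations of mice from their strain mean), all on log2(FPKM + 1). Red squares are the 8 microglia genes, green points 24 other microglia genes and grey points all other genes; Csf1r lies alone at 0.73 and 0.66, and P2ry12 lies among the grey points.

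The set was not held together by Cx3cr1 alone. Over all 36 pairs the median r between strains was 0.53 and within strains 0.31. All 28 pairs without P2ry12 were positive between strains, from 0.35 to 0.93, and within strains, from 0.04 to 0.66. The 8 pairs with P2ry12 lay between -0.06 and 0.19 between strains and between -0.07 and 0.14 within them. The tightest pair was C1qb and C1qc, with r = 0.93 and rho = 0.90 over 99 strains (permutation p = 1e-05 for each, the smallest possible and not adjusted over the pairs) and r = 0.60 within strains. Without CBA/J and A/J it was 0.92, and within the strain sets it was 0.81 to 0.97.

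C1qa was tied to C1qb and C1qc less closely, with r of 0.74 and 0.68 between strains, and about as closely to Ctss (0.76) and Tyrobp (0.75). Tyrobp and Ctss had r = 0.75. The receptor Trem2 and its adaptor Tyrobp had r = 0.54 between strains and 0.39 within them. Mouse OB-547 was far above its strain in both genes, and the within-strain value is given only with that mouse. Between strains r of Trem2 with the other genes except P2ry12 lay close to 0.54, from 0.53 to 0.56. Apart from P2ry12, Cx3cr1 had its lowest r with C1qc, Tyrobp and Ctss, at 0.35 to 0.36. P2ry12 had no r above 0.19 with any of the others.

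**Figure D5:**
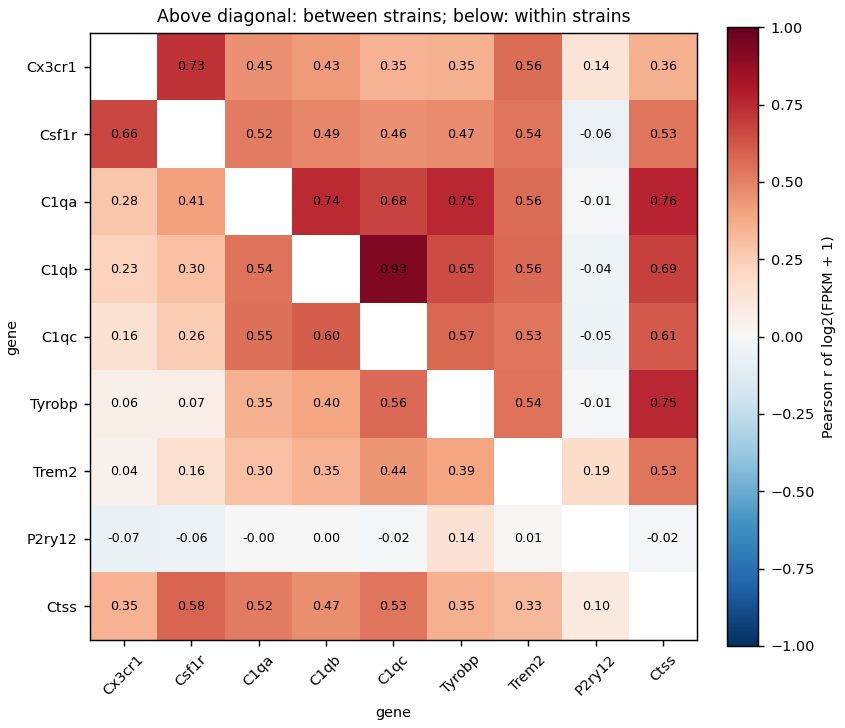
Pearson r of log2(FPKM + 1) for each pair of the 9 genes (both axes are genes, colour from -1 in blue to 1 in red). Values above the diagonal are between 99 strain means and values below it within strains; C1qb with C1qc is highest above the diagonal at 0.93, Cx3cr1 with Csf1r highest below it at 0.66, and the P2ry12 row and column are near 0.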

How the data were processed

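Whole hypothalamus of male mice was profiled (282 libraries) by unstranded mRNA sequencing with paired reads of 50 bases. Per the study's methods and the submitters' processing notes, the authors aligned reads to mm10 with STAR 2.3.1, allowing up to 3 mismatches, built a transcript assembly for each strain (Cufflinks 2.2.0), combined these with the GENCODE M2 annotation and estimated levels per mouse (Cuffnorm 2.2.1). The deposited values are FPKM, which the authors scaled between mice. The sequence of mm10 is that of C57BL/6J, so reads of other strains can carry mismatches; this was not tested. FPKM hold no counts, so no counting interval is given, and precision rests on the spread between mice. The deposited assembly gives exon coordinates in mm10. Columns of values left unused numbered 0.

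The libraries OB-273 and OB-274, which held 1 profile, were averaged and counted as 1 mouse. FPKM were transformed as log2(FPKM + 1). Strain differences (moderated F test), contrasts with C57BL/6J and slopes on Cx3cr1 were fitted on all genes with limma 3.58.1 in R 4.3.3, with Benjamini-Hochberg adjustment over all genes and a threshold of 0.05. All strains entered 1 fit, so strains with 1 mouse borrow the spread of the others. Within-strain r is over deviations from strain means. Permutation tests were 2-sided with 100000 resamples of strains, or of mice within strains. The relatedness of strains was not modelled in any test between strain means. The limma F test, contrast and slopes were checked on simulated data with independent strains, and the permutation tests were not. The labels call the mice of a strain biological replicates but do not say whether they shared a cage or litter. The members and lists were chosen with earlier results of these data known. Named genes were the members, the 10 genes closest to Cx3cr1 between and within strains, the named genes within 1000000 bases of it, up to 4 list members at each end of r, the strains at both ends and the parental strains; some genes that this rule names are not reported here. Alternatives covered the pseudocount, a filter, scaling, covariates, single strain sets, left-out mice and the 2 averaged libraries kept apart. Upstream sequences came from RefSeq and the C1qa junction from GENCODE M21.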

Additional observations from a re-analysis of the deposited data

How the results depend on the processing

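Strain differences of the genes were stable: 8 of the 9 genes passed in all alternatives but that with only the classical inbred strains, in which P2ry12 passed as well (share 0.21, limma adjusted p = 0.0499). For transcripts the count fell from 20 to 13 with a mean FPKM of at least 1, where only 23 of 40 remained to be tested, and to 11 with only the classical inbred strains, and lay between 14 and 17 with 1 mouse per strain left out. Counting OB-273 and OB-274 as separate mice, an alternative chosen after seeing the data, gave 21 transcripts and left the other 7 counts as they were. Of 134 alternative counts 26 moved by more than 1.5 times and the others stayed within that. Following Cx3cr1 between strains, 2 genes passed with only the BXD strains, 0 with only the classical inbred, AXB and BXA, BXH or CXB strains, 7 over single mice without a strain term, and 2 to 7 with 1 mouse per strain left out. Within strains 1 passed with only the BXD or only the classical inbred strains, 0 with only the AXB and BXA, BXH or CXB strains, 2 with the sums of deposited transcripts, and 1 to 3 with 1 mouse per strain left out. The fits of single strain sets and of left-out mice hold fewer mice; the cause was otherwise not tested. Against C57BL/6J, leaving out 1 mouse per strain gave 0 to 2 genes in DBA/2J, 0 to 1 in BALB/cJ and 0 to 1 in C3H/HeJ.

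Reversals of sign were confined, among the 1015 alternatives for single genes, to 27 values, of which 1 (that of P2ry12 in the classical inbred strains) passed the test. Between strains r was -0.066 for C1qb and -0.14 for C1qc with only the AXB and BXA strains, and -0.50 for P2ry12 with only the BXH strains and -0.015 with only the CXB strains. Within strains with only the CXB strains r was -0.35 for C1qb, -0.29 for C1qc, -0.15 for Tyrobp, -0.24 for Trem2 and 0.099 for P2ry12. Tyrobp had -0.090 with only the classical inbred strains and -0.023 without BXD74, and with 1 mouse per strain left out r lay between -0.11 and 0.12 for Tyrobp and between -0.042 and 0.15 for Trem2. The log2 difference of C1qa in C3H/HeJ was -0.0091 with quantile normalization. With 1 mouse per strain left out the share of P2ry12 lay between -0.14 and 0.015. Differences from C57BL/6J that crossed 0 with 1 mouse per strain left out were those of C1qa (-0.19 to 0.061), Tyrobp (-0.54 to 0.0035) and Trem2 (-0.31 to 0.28) in DBA/2J, Ctss in A/J (-0.13 to 0.014), Csf1r (-0.21 to 0.11) and C1qa (-0.27 to 0.039) in BALB/cJ, and Csf1r (-0.037 to 0.10), C1qa (-0.14 to 0.14) and P2ry12 (-0.31 to 0.44) in C3H/HeJ.

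No paired analysis was possible because replicate numbers were given in accession order and tie no mouse of 1 strain to a mouse of another. The smallest contrasts rest on 3 mice against 3, and FPKM without counts leave the depth behind each value unknown.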
